A study of Arabidopsis thaliana with 6 samples.

Results

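The microRNAs (miRNAs) that Arabidopsis accumulates when phosphate is scarce, miR399, miR827, miR2111 and miR778, were described in seedlings given a brassinosteroid. All table rows that list a locus of these families were taken, with both arms of the precursor. They were 11 of the 294 mature sequences in the table and came from 10 loci, MIR399a to MIR399f, MIR827, MIR2111a, MIR2111b and MIR778. The rule uses family numbers and no measured values, though the rows were chosen with earlier results of these data known.

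The epiBL seedlings received 1 µM epibrassinolide (epiBL), an active brassinosteroid, and the control seedlings received the solvent alone. Both were harvested after 90 min, with 3 biological replicates each. All plants of both groups carried the bri1-5 mutation of the brassinosteroid receptor BRI1 together with a BRI1-Flag transgene driven by the BRI1 promoter, so no group lacked the transgene or the mutation. Seedlings grew in shaking liquid culture, and neither their age nor the phosphate content of the medium is given in the sources used here. The table holds miRNAs alone, so the tissue label could not be set against marker mRNAs. In RNA from whole seedlings, fewer cells that make a miRNA and less of it per cell cannot be told apart. Total counts of exact mature reads ran from 2050074 to 4112329 in epiBL libraries and from 3878714 to 4482479 in control libraries. By chi-square per degree of freedom over all rows, a measure that grows with depth, epiBL replicate 2 stood at 231 from epiBL replicate 1 and 201 from epiBL replicate 3 but at 60.1 from its nearest library, control replicate 3, while epiBL replicates 1 and 3 were 39.2 apart and the controls 40.9 to 187 apart. Calls among the members are therefore also given without it. epiBL replicate 3 was the shallowest, and 3 counts there equalled 1.46 CPM (counts scaled to 1000000 per library).

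When phosphate runs short, the transcription factor PHR1 activates genes that carry its binding motif, among them miRNA genes. miR399 then lowers PHO2, an E2 ubiquitin-conjugating enzyme that limits phosphate uptake and its loading into the xylem, and miR827 lowers NLA, an E3 ligase with an SPX domain that directs phosphate transporters to degradation. miR2111 targets transcripts of an F-box gene of the Kelch type, AT3G27150 in Arabidopsis, and in the legume Lotus japonicus it moves from shoot to root and controls nodulation. miR778 targets the histone methyltransferase genes SUVH5 and SUVH6.

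The miR399 guide strands are shown because their members differ from each other by single bases and did not all have the same values after epiBL. They are given 5′ to 3′ as DNA letters from the deposited table, with the seed (bases 2 to 8) in capitals.
miR399a-3p: tGCCAAAGgagatttgccctg
miR399b/c-3p: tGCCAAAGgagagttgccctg
miR399d-3p: tGCCAAAGgagatttgccccg
miR399e-3p: tGCCAAAGgagatttgcctcg
miR399f-3p: tGCCAAAGgagatttgcccgg

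All 5 shared the seed, and no other row of the 294 had it. Positions are counted from 1 at the 5′ end, with the base of miR399b/c-3p first. miR399a-3p differed from miR399b/c-3p by G13T alone, miR399d-3p by G13T and T20C, miR399f-3p by G13T and T20G, and miR399e-3p by G13T, C19T and T20C. The 4 minor sequences thus shared G13T, and miR399b/c-3p, which MIR399b and MIR399c make alike, stood apart at that base.

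The remaining guide strands and the miR2111 passenger strands are shown because none has the miR399 seed and because the summed miR2111 reads were called higher with epiBL. That call was lost in 10 of 15 alternative settings.
miR827-3p: tTAGATGAccatcaacaaact
miR2111a/b-5p: tAATCTGCatcctgaggttta
miR2111a-3p: gTCCTCGGgatgcggattacc
miR2111b-3p: aTCCTCGGgatacagtttacc
miR778-5p: tGGCTTGGtttatgtacaccg

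Both miR2111 loci give the same 5p sequence, so its reads cannot be assigned to either. Their 3p sequences shared a seed and differed by G1A, G12A, G14A and A16T (miR2111a-3p first), so these rows report the loci separately.

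By exact match to the TAIR10.1 assembly, MIR399d, MIR399e and MIR399f lie together within 2137 bases of chromosome 2. miR399d-3p is at chr2:14442988-14443008 on the minus strand, miR399e-3p at chr2:14443582-14443602 and miR399f-3p at chr2:14445084-14445104, both on the plus strand. miR399a-3p lies at chr1:10227165-10227185 (plus strand). The sequence of miR399b/c-3p matched chr1:23345387-23345407 (minus strand, MIR399b) and chr5:24962568-24962588 (plus strand, MIR399c). miR827-3p is at chr3:22122811-22122831 (minus strand). miR2111a-3p is at chr3:2854394-2854414 (plus strand), opposite an exon of the long noncoding RNA gene AT3G02155, and miR2111b-3p at chr5:400464-400484 (plus strand). None of these overlaps a protein-coding gene. miR778-5p, at chr2:17349548-17349568 (minus strand), lies inside the protein-coding gene AT2G41620 on the same strand, outside its annotated exons.

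The abundance of the members spanned several orders of magnitude. miR827-3p was the most abundant, ranked 9 of 294 rows by mean, at 11933 CPM over the 6 libraries (from here on per 1000000 of the library total scaled by the TMM method; all guide strands are 21 bases, so length does not bias these levels). miR399b/c-3p followed with a mean of 4532 CPM, then miR399a-3p with 1672 CPM and miR399f-3p with 217 CPM. miR399d-3p (129 CPM) and miR2111a/b-5p (89.2 CPM) came next, and their ranges did not overlap in the control libraries but did with epiBL. miR2111a-3p (55.8 CPM) and miR2111b-3p (35.4 CPM) were lower, with all 6 libraries of miR2111b-3p under 43 CPM. Together the 11 sequences took 1.83% ± 0.239 of all counts with epiBL and 1.91% ± 0.0790 in controls (SD, n = 3 each), values that overlapped. In the plot of levels by library, abundant members stay close together between libraries and the rarest scatter.

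**Figure D1:**
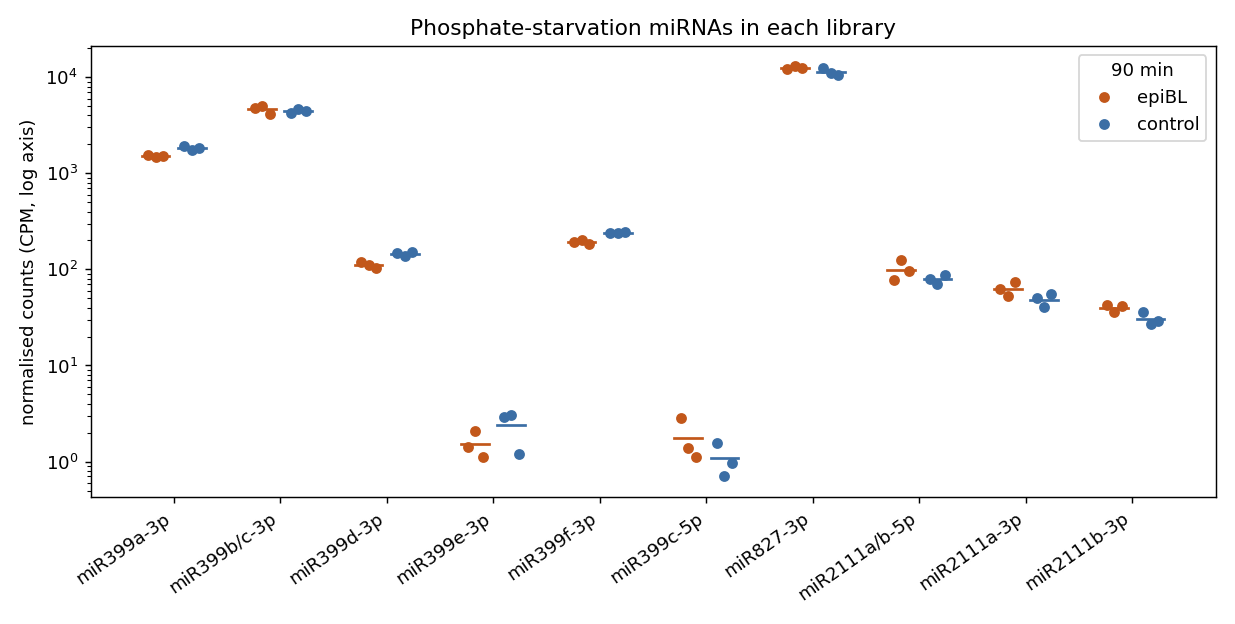
Normalised counts (CPM, log axis) of 10 phosphate-starvation miRNA sequences in 3 epiBL libraries (left) and 3 control libraries (right of each pair); points are libraries and bars are means. miR399a-3p, miR399d-3p and miR399f-3p lay lower in all epiBL libraries than in any control library; miR778-5p, with 2 reads in all, is not drawn.

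miR399d-3p fell after epiBL, and no other single row among the members passed the test. It had 119, 111 and 103 CPM in epiBL replicates 1, 2 and 3, against 150, 137 and 151 CPM in control replicates 1, 2 and 3. Every epiBL library was below every control library. It fell to 0.764 of the control level, a log2 fold change of -0.39 (SE 0.11, 95% interval -0.62 to -0.16), with an adjusted p of 0.0356 (Benjamini-Hochberg over 148 rows, quasi-likelihood test of edgeR). Of the 8 members tested, 1 fell, 0 rose and 7 did not pass, where 8.11% of all tested rows were called, 2.7% higher and 5.41% lower. The log2 fold change stayed between -0.43 and -0.33 whichever library was left out, but the call held in 2 of those 6 fits, with an adjusted p in edgeR's test of 0.0352 without epiBL replicate 1 and 0.0406 without epiBL replicate 2. Leaving out epiBL replicate 3 gave 0.123, and leaving out control replicates 1, 2 and 3 in turn gave 0.143, 0.0527 and 0.166. With no filter on low counts it was 0.0576.

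miR399f-3p, from the same chromosome 2 cluster, had 193, 203 and 182 CPM in epiBL replicates 1 to 3, against 238, 237 and 246 CPM in control replicates 1 to 3. The groups again did not overlap. Its log2 fold change was -0.31 (SE 0.10, 95% interval -0.52 to -0.11) and its adjusted p in edgeR's test, 0.0599, missed the threshold of 0.05. miR399a-3p, from chromosome 1, had 1537, 1489 and 1513 CPM in epiBL replicates 1 to 3, against 1910, 1759 and 1822 CPM in control replicates 1 to 3. Here too the groups were separate, with a log2 fold change of -0.27 (SE 0.088, 95% interval -0.46 to -0.086) and an adjusted p of 0.0682 in edgeR's test. miR399f-3p passed with upper-quartile scaling (adjusted p = 0.0445 in edgeR's test) and without epiBL replicate 2 (0.0406), and both passed when counts were scaled by library totals alone (0.0475 for miR399f-3p and 0.0418 for miR399a-3p), which moved the median of all tested rows by -0.13.

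miR399b/c-3p, the most abundant miR399 sequence, did not share that pattern. It had 4738, 5018 and 4143 CPM in epiBL replicates 1 to 3, against 4231, 4637 and 4425 CPM in control replicates 1 to 3. The groups overlapped, and the lowest and the highest library were both from epiBL. Its log2 fold change was 0.065 (SE 0.10, 95% interval -0.15 to 0.28, adjusted p = 0.755 in edgeR's test), and it turned negative, -0.065, when counts were scaled by library totals alone.

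**Figure D2:**
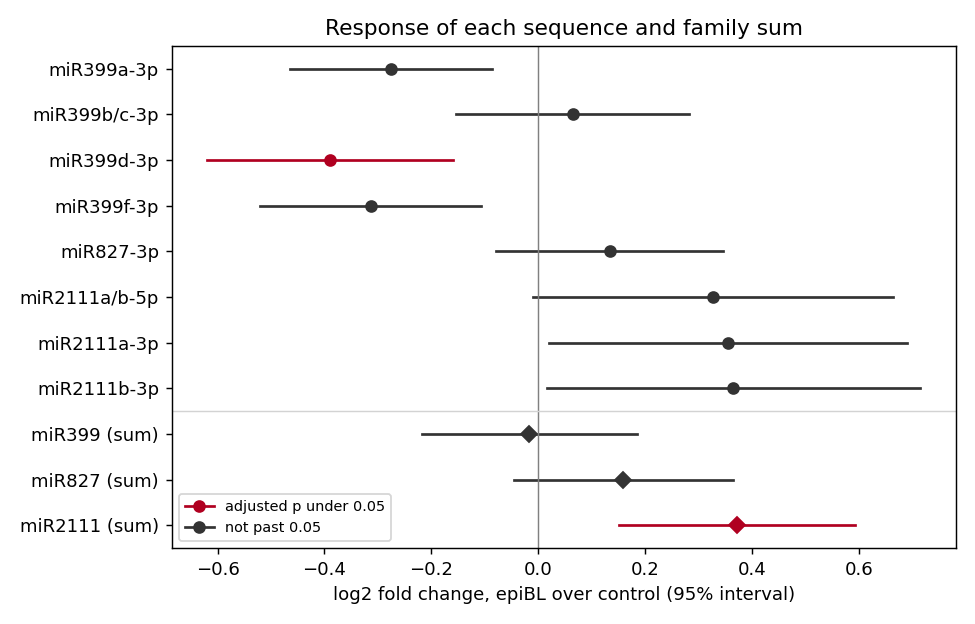
Log2 fold change, epiBL over control, with its 95% interval for 8 tested sequences (circles) and 3 family sums (diamonds), from edgeR's quasi-likelihood fits. miR399d-3p (-0.39) and the miR2111 sum (0.37) are drawn in red as past an adjusted p of 0.05. Of the other miR399 sequences with G13T, miR399a-3p and miR399f-3p lie left of zero, and miR399e-3p was not tested and is not drawn. miR399b/c-3p lies at 0.065, a sign that turns with total-count scaling.

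Ratios inside a library need no scaling factor, and they set the minor miR399 sequences against miR399b/c-3p directly. Per 100 reads of miR399b/c-3p there were 2.52, 2.21 and 2.50 reads of miR399d-3p in epiBL replicates 1 to 3, against 3.53, 2.96 and 3.42 in control replicates 1 to 3. miR399f-3p gave 4.08, 4.05 and 4.40 in epiBL libraries, against 5.63, 5.10 and 5.57 in control libraries. miR399a-3p gave 32.4, 29.7 and 36.5 in epiBL libraries, against 45.2, 37.9 and 41.2 in control libraries. In all of these ratios each epiBL library was below each control library. They share miR399b/c-3p as denominator, so they do not count as separate results. How often such ratios separate over the whole table was not tested. Among single tested rows, groups did not overlap in 27.7%.

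All 10 pairs of miR399 guide strands were compared in this way, a comparison added after the values were seen. The log2 ratio of miR399b/c-3p to miR399d-3p was 5.38 ± 0.106 with epiBL and 4.92 ± 0.136 in controls (SD, n = 3 each), a difference of 0.46, and it stayed between 0.39 and 0.53 whichever library was left out. The difference was 0.38 for miR399b/c-3p to miR399f-3p (0.35 to 0.42 with 1 library left out) and -0.34 for miR399a-3p to miR399b/c-3p (-0.41 to -0.26). Each had an exact two-sided permutation p of 0.1, the smallest that 3 against 3 libraries can give, and an adjusted p of 0.25 over the 10 pairs. Among the sequences that share G13T, the difference was 0.12 for miR399a-3p to miR399d-3p (exact permutation p = 0.1, adjusted p = 0.25). Groups did not overlap in this pair either, as in the pairs of miR399b/c-3p with miR399a-3p, miR399d-3p and miR399f-3p. The difference was 0.044 for miR399a-3p to miR399f-3p (exact permutation p = 0.7) and -0.077 for miR399d-3p to miR399f-3p (exact permutation p = 0.3). Pairs with miR399e-3p, which had 2 to 13 reads per library, gave 0.29 for miR399a-3p to it, 0.17 for miR399d-3p to it, -0.25 for it to miR399f-3p and 0.63 for miR399b/c-3p to it, with exact permutation p from 0.3 to 0.8. With 1 library left out these reached 0.72, 0.63, -0.70 and 1.06.

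**Figure D3:**
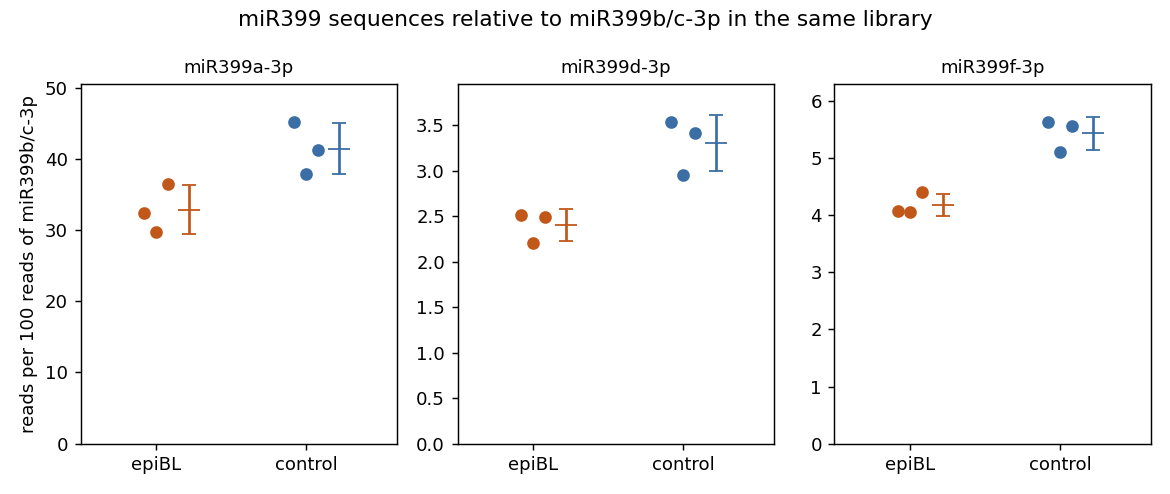
Reads of miR399a-3p, miR399d-3p and miR399f-3p per 100 reads of miR399b/c-3p in the same library, with epiBL left of control; points are the 3 libraries and the bar is the mean with its SD. In each panel the 3 epiBL libraries lie below the 3 control libraries, and all panels share the same denominator.

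As counts are of exact reads, a misread base moves a read between these rows, and miR399a-3p is 1 base away from the more abundant miR399b/c-3p. miR399d-3p and miR399f-3p are in turn each 1 base away from miR399a-3p, which is more abundant than both, and from each other. miR399e-3p and miR399d-3p also differ by 1 base, C19T, and the reads of miR399e-3p were 1.39 ± 0.438 per 100 of miR399d-3p with epiBL and 1.65 ± 0.750 in controls (SD, n = 3 each). The part of misread bases in these rows was not tested.

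The miR399 family total did not pass the test. Summed over its 6 rows, miR399 had 6820, 6842 and 5883 CPM in epiBL replicates 1 to 3, against 6466, 6830 and 6485 CPM in control replicates 1 to 3, which overlapped. The log2 fold change of the sum was -0.017 (SE 0.099, 95% interval -0.22 to 0.18, adjusted p = 0.981 over 85 families in edgeR's test). Within the sum, miR399b/c-3p made up 71.7% ± 1.92 with epiBL and 66.6% ± 1.85 in controls (SD, n = 3 each). miR399a-3p made up 23.5% ± 1.83 with epiBL and 27.5% ± 1.64 in controls.

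The target is shown next because base 13 lies inside its pairing with miR399. PHO2 (AT2G33770) is on the minus strand of chromosome 2, and an ungapped search of its spliced transcript found 5 sites for miR399, all in the 5′ UTR. They are given 5′ to 3′ from the TAIR10.1 assembly, numbered from the 5′ end of the transcript, with the bases opposite the seed in capitals.
PHO2 site 1, chr2:14282106-14282126: tagggcaaatcttCTTTGGCa
PHO2 site 2, chr2:14281973-14281993: tagggcatatctcCTTTGGCa
PHO2 site 3, chr2:14281884-14281904: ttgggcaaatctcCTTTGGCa
PHO2 site 4, chr2:14281827-14281847: tcgagcaaatctcCTTTGGCa
PHO2 site 5, chr2:14281770-14281790: tagagcaaatctcCTTTGGCa

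No site had a mismatch with the seed. At position 13, miR399b/c-3p was mismatched at 5 of 5 sites, and the 4 sequences that carry G13T were paired at 5 of 5. The pairing score counted each mismatch as 1 and each wobble pair (a G opposite a U) as 0.5, so a lower score is closer pairing. It ran from 2 to 3.5 for miR399b/c-3p, from 1 to 2.5 for miR399a-3p and miR399f-3p, from 1.5 to 2.5 for miR399d-3p and from 2 to 3 for miR399e-3p. Over the 5 sites miR399b/c-3p had 10 mismatches, miR399d-3p and miR399e-3p 8 each, miR399f-3p 6 and miR399a-3p 5. Target mRNAs were not measured, so these scores describe sequence alone.

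**Figure D4:**
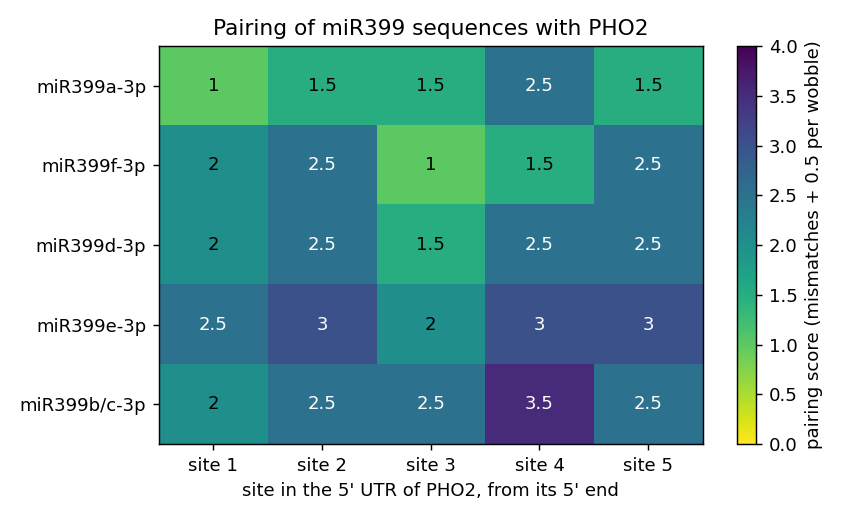
Pairing score (mismatches plus 0.5 for each wobble; lower is closer pairing) of 5 miR399 guide strands with the 5 sites in the PHO2 5′ UTR, numbered from its 5′ end. miR399a-3p reaches a score of 1 at site 1 and miR399f-3p at site 3, and miR399b/c-3p has the highest score in the grid, 3.5 at site 4.

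miR2111 rose as a family. Its summed level was 189, 213 and 208 CPM in epiBL replicates 1 to 3, against 164, 140 and 168 CPM in control replicates 1 to 3, with no overlap. The log2 fold change was 0.37 (SE 0.11, 95% interval 0.15 to 0.59), a 1.29-fold rise, with an adjusted p of 0.0332 over 85 families in edgeR's test. Of the 3 member families tested 1 rose, where 8.24% of all tested families were called, 4.71% higher and 3.53% lower. The groups did not overlap in 2 of the 3, miR2111 and miR827, both higher, where they did not in 25.9% of all tested families, 12.9% higher and 12.9% lower. At an unadjusted p under 0.05, passed by 21.2% of families, miR2111 was again the 1 of 3. In edgeR's test the adjusted p was 0.0414 without control replicate 1, but it did not pass without any of the other libraries. Leaving out epiBL replicates 1, 2 and 3 in turn gave 0.0936, 0.109 and 0.204, and leaving out control replicates 2 and 3 gave 0.131 and 0.178. It was 0.0509 in DESeq2, and in edgeR's test 0.0728 with RLE factors, 0.332 with upper-quartile factors, 0.118 with no filter and 0.430 with total counts alone, where the log2 fold change was 0.22.

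None of the 3 miR2111 rows passed alone, though all had log2 fold changes of like size. miR2111a/b-5p, the guide strand, had 77.3, 124 and 95.6 CPM in epiBL replicates 1 to 3, against 79.8, 71.1 and 87.3 CPM in control replicates 1 to 3. Its groups overlapped, with epiBL replicate 2 above the rest, and the log2 fold change was 0.33 (SE 0.16, adjusted p = 0.208 in edgeR's test). Without epiBL replicate 2 the log2 fold change of miR2111a/b-5p was 0.12 (adjusted p = 0.654 in edgeR's test), and without epiBL replicate 1 it was 0.51 (0.0262).

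The passenger strand miR2111a-3p had 63.1, 52.7 and 73.2 CPM in epiBL replicates 1 to 3, against 50.1, 40.2 and 55.5 CPM in control replicates 1 to 3, a log2 fold change of 0.35 (SE 0.16, adjusted p = 0.171 in edgeR's test). Without epiBL replicate 2 it passed, at 0.49 (adjusted p = 0.0213 in edgeR's test), and without control replicate 2 its log2 fold change was 0.23 (0.427). miR2111b-3p, from the other locus, had 42.7, 35.7 and 41.4 CPM in epiBL libraries, against 36.0, 27.3 and 29.1 CPM in control libraries, and 0.37 (SE 0.16, adjusted p = 0.176 in edgeR's test). Both passenger strands overlapped between groups by 1 library on each side. Set against each other, miR2111b-3p had 64.0 ± 6.52 reads per 100 of miR2111a-3p with epiBL and 64.1 ± 10.3 in controls (SD, n = 3 each).

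The 5p strand of miR2111 was about as abundant as both 3p strands together. Reads of the 5p strand per 100 reads of both 3p strands were 73.0, 141 and 83.4 in epiBL replicates 1 to 3, against 92.7, 105 and 103 in control replicates 1 to 3. The epiBL libraries lay on both sides of the controls. The log2 ratio of the 5p to the miR2111a 3p strand differed by -0.077 (SE 0.25) and that to the miR2111b 3p strand by -0.083 (SE 0.25), with limma adjusted p of 0.906 and 0.905 over 45 pairs, of which 2.22% passed. The target site of miR2111a/b-5p in AT3G27150 lay in coding sequence at chr3:10010764-10010784, on the minus strand, with 2 mismatches, at positions 14 and 21 of the miRNA.

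miR827-3p, the most abundant member, had 12034, 12948 and 12479 CPM in epiBL replicates 1 to 3, against 12348, 11134 and 10655 CPM in control replicates 1 to 3. Control replicate 1 lay among the epiBL libraries and the other controls below them. Its log2 fold change was 0.13 (SE 0.099, 95% interval -0.078 to 0.35, adjusted p = 0.407 in edgeR's test). As a family sum, scaled by the factors of the family fit, the same reads were 12452, 12983 and 12351 CPM in epiBL libraries, against 12220, 11226 and 10397 CPM in control libraries, a narrow separation, with a log2 fold change of 0.16 (adjusted p = 0.410 in edgeR's test). NLA (AT1G02860) held 1 site for it in the 5′ UTR, at chr1:635401-635421 on the plus strand, with 1 mismatch, at position 21. The site is shown, with the bases opposite the seed in capitals, because it pairs along nearly its whole length.
NLA site: tgtttgttgatggTCATCTAa

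The last members were near or under the limit of detection. miR778-5p had 0 of 9894820 reads with epiBL, which allows up to 0.303 CPM for counting error alone, and 2 of 12292908 reads in controls. Its sites lay in coding sequence of SUVH6 (AT2G22740, chr2:9665559-9665579, minus strand, 1 mismatch and 1 wobble) and SUVH5 (AT2G35160, chr2:14824716-14824736, plus strand, 1 mismatch and 3 wobbles). The signed fold of -5.64 that the authors' deposited table gives for miR778-5p (p = 0.515 in the authors' deposited table, not adjusted) rests on those 2 reads. miR399e-3p had 5, 9 and 2 reads in epiBL replicates 1 to 3, against 13, 13 and 5 reads in control replicates 1 to 3. miR399c-5p, the passenger strand of MIR399c, had 10, 6 and 2 reads in epiBL replicates 1 to 3, against 7, 3 and 4 reads in control replicates 1 to 3. These 3 sequences did not pass the filter on low counts, so 8 of 11 members were tested. For its own comparison the authors' deposited table gives unadjusted p-values under 0.05 to miR399d-3p (0.0013), miR399f-3p (0.0069), miR399a-3p (0.0106), miR2111b-3p (0.0265) and miR2111a-3p (0.0268). Those p-values rest on the same libraries as the tests here, so they are not separate evidence. The share of all 294 rows with a deposited p under 0.05 was not counted.

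Over the 8 tested members, groups did not overlap in 3, all lower with epiBL, where groups did not overlap in 27.7% of all tested rows, 10.1% higher and 17.6% lower. An unadjusted p under 0.05 was reached by 5 of the 8 (2 with a positive and 3 with a negative log2 fold change), and by 23.6% of all tested rows (10.1% positive and 13.5% negative). The median log2 fold change of these 8 was 0.099, against 0.0046 for all 148 tested rows. It was -0.29 for the 4 miR399 rows and 0.35 for the 3 miR2111 rows. Ratios of family sums were also compared, but an exact permutation test of 3 against 3 libraries cannot give a p under 0.1. No family pair could thus pass 0.05, so these values cannot decide whether families responded differently. The log2 ratio of miR399 to miR2111 was 5.00 ± 0.174 with epiBL and 5.39 ± 0.188 in controls (SD, n = 3 each), a difference of -0.40 (exact two-sided permutation p = 0.1, adjusted p = 0.36 over 6 family pairs). Ratios of miR399 to miR827 and of miR827 to miR2111 differed by -0.18 and -0.21 (exact permutation p = 0.2 each, adjusted p = 0.36). miR778 had 2 reads in all. Ratios of miR399, miR827 and miR2111 to miR778 differed by 0.50, 0.68 and 0.90 (exact permutation p = 0.5, 0.3 and 0.3).

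Other families reported to respond to phosphate supply were read beside these, and so were copper-responsive families. Both lists were chosen with earlier results of these data known. Their counts of called rows therefore cannot be tested against the shares over all rows. Of 16 tested rows of miR156, miR169, miR395 and miR398, 3 rose and 2 fell in edgeR's test, with a median log2 fold change of 0.043, where 2.7% of all tested rows were called higher and 5.41% lower. Those that rose were miR156g-5p (log2 fold change 2.00, SE 0.22) and the miR395 guide strands miR395a/d/e-3p (0.67, SE 0.11) and miR395b/c/f-3p (0.40, SE 0.11), which act on sulfate assimilation. Those that fell were miR169h/i/j/k/l/m/n-5p (-0.99, SE 0.26), whose family acts on transcripts of NF-YA subunits, and miR398a-5p (-1.11, SE 0.15), the passenger strand of a family that acts on copper superoxide dismutases. The most abundant members of miR156 and miR398, miR156a/b/c/d/e/f-5p and miR398b/c-3p, had log2 fold changes of 0.035 (SE 0.12) and -0.021 (SE 0.10) and did not pass. Of 5 tested rows of the copper-responsive families miR397, miR408 and miR857, 2 fell, miR397a-5p (-0.74, SE 0.11) and miR408-5p (-0.50, SE 0.13), and 0 rose, with a median of -0.39, beside the same 5.41% called lower and 2.7% called higher over all tested rows. The abundant miR397b-5p and miR408-3p had -0.20 (SE 0.098) and -0.20 (SE 0.095), and miR857-3p had -0.39 (SE 0.12). None of those 3 rows passed. miR398, whose targets include copper superoxide dismutases, was placed in the phosphate list alone. The copper counts and the median of -0.39 therefore leave it out. Among its rows miR398a-5p fell (-1.11), while miR398b/c-3p (-0.021), miR398a-3p (0.051) and miR398b/c-5p (-0.15) did not pass. As family sums in edgeR's test, miR857 fell (log2 fold change -0.37, SE 0.11, adjusted p = 0.0332), as did miR169 (-0.81, SE 0.19, adjusted p = 0.0112), and miR395 rose (0.51, SE 0.10, adjusted p = 0.00123). The sums of miR156, miR398, miR397 and miR408 did not pass.

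Most members have an upstream sequence feature that the rule did not use. The PHR1-binding motif GNATATNC, which reads the same on both strands, was searched in the 1000 bases before each annotated precursor, a start that need not be the start of transcription. It occurred at 7 of the 10 loci, in 1 copy at MIR399a, 2 each at MIR399b, MIR399d and MIR399e and 3 each at MIR399c, MIR399f and MIR827. No copy was in this window at MIR2111a, MIR2111b or MIR778. Among all 326 annotated miRNA genes 24.5% held it, and among 27443 protein-coding genes 20.3%. MIR399d and MIR399e are transcribed away from each other with 426 bases between them, so their windows share sequence. Motifs linked to the brassinosteroid factor BZR1 were searched on both strands of the same windows. CGTGTG was found at 2 loci, MIR399b and MIR2111b, against 16.3% of miRNA genes, CGTGCG at 0 of 10 against 4.29%, and the G-box CACGTG, which reads the same on both strands, at MIR399e alone, against 12.6%.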

How the data were processed

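The authors deposited 1 table of raw read counts of 294 mature miRNA sequences in 6 small RNA libraries (mirVana RNA, TruSeq small RNA libraries, Illumina sequencing, per the labels' protocols). Per the file headers, a count is of reads identical to a mature sequence, so trimmed or edited reads are absent and loci with 1 sequence share a row. The genome build is TAIR10, per the submitters' processing notes; the sources used here name no trimming, aligner or miRNA database. The deposited p-value is from an EDGE test and not adjusted, and the deposited signed fold is a score in which a fall is minus the inverse fold, per the file headers. These headers set 90 min against 0 min; the labels, followed here, have 90 min in both groups.

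Counts of the whole table were fitted in R 4.3.3 with edgeR 4.0.16 (filterByExpr with a minimum count of 10 and total of 15, TMM factors, robust quasi-likelihood F test, Benjamini-Hochberg adjustment, threshold 0.05), for single rows (148 tested) and for sums per family number (85 tested; a row listing 2 families counts in the first). Standard errors (SE) were derived from each log2 fold change and its F. Arm ratios used limma 3.58.1 on log2 ratios of counts plus 0.5. DESeq2 1.42.0, other scalings, filters and thresholds, limma-trend, a replicate block and leaving out each library were alternatives. Ratios between families and between miR399 rows used exact permutation tests. The main edgeR and limma fits were tested on simulated data, in which the changed rows had larger changes than miR399d-3p and the miR2111 sum. How often the fits call changes as small as those was not tested. The labels call the replicates biological and do not mention separate cultures; p-values therefore cover the spread among these samples, which may be technical. Every pair of libraries differed by more than sampling noise in a chi-square test of counts, so none was merged. The 11 rows and all lists were chosen with earlier results of these data known; every member row was to be named, and from the other families the called and the most abundant rows. Sites and motifs were read from TAIR10.1 with Python 3.11.15; sites had at most a score of 5. The limit given for a count of 0 covers counting error only, since PCR copies count as reads.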

Additional observations from a re-analysis of the deposited data

How the results depend on the processing

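The 12 rows called among 148 became 22 with the replicate block, 26 with the adjusted threshold raised to 0.1, 35 with unadjusted p-values, and 5 to 25 with 1 library left out. Member rows called lower, 1 here, numbered 2 with upper-quartile factors, 3 with total counts alone, 0 with no filter (more rows share the adjustment), 3 with the threshold raised to 0.1, 3 with unadjusted p-values and 0 to 2 with 1 library left out. Member rows called higher numbered 2 with unadjusted p-values and 0 to 1 with 1 library left out. The 7 families called became 3 with RLE factors, 0 with upper-quartile factors and 2 with no filter, all in edgeR. With upper-quartile factors 11 families had an unadjusted p under 0.05 in edgeR's test. DESeq2, run with its own scaling, called 5. The main fit had 18 families at an unadjusted p under 0.05, and 0 to 11 were called with 1 library left out. Member families called higher, 1 here, numbered 0 with RLE factors, upper-quartile factors, total counts alone, no filter and in DESeq2, and 0 to 1 with 1 library left out. Arm ratios called, 1 of 45 here, numbered 3 with a pseudocount of 5, 2 with the replicate block and 0 to 2 with 1 library left out. Apart from the filter and thresholds, the cause was not tested. Changes of sign occurred in values that did not pass, miR399b/c-3p (-0.065 with total counts alone) and the miR399 sum (0.0035 with upper-quartile factors). With 1 library left out, the miR399 sum ranged from -0.073 to 0.043, the miR2111 arm ratio differences from -0.38 to 0.096 (miR2111a) and -0.34 to 0.13 (miR2111b), and the log2 ratio difference of miR399d-3p to miR399e-3p from -0.11 to 0.63. In every alternative run miR399a-3p, miR399d-3p and miR399f-3p kept a negative log2 fold change (-0.52 to -0.24 over the 3) and the 3 miR2111 rows a positive one (0.12 to 0.51). Libraries with the same replicate number share only that number: deviations from the group means correlated at -0.057, 0.14 and -0.10, and the best match was the own number in 2 of 6. The replicate block kept both member calls (adjusted p = 0.0259 for miR399d-3p and 0.0244 for the miR2111 sum in edgeR's test). Depth limits miR778-5p, miR399e-3p and miR399c-5p.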
